A study of Mus musculus with 8 samples.

Results

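Slc1a1 and Slc1a3 encode sodium-dependent glutamate transporters, and both were followed here through RNA-seq and ribosome profiling of cultured mouse oligodendrocyte progenitor cells (OPCs) and oligodendrocytes (OLs). Both genes were chosen by their measured values, because Slc1a1 was higher and Slc1a3 lower in oligodendrocytes than in OPCs, so that their differences are a description and carry no test. They are 2 of the 10987 transcripts with values. The OPCs were derived from epiblast stem cells of the 129S/SvEv strain and were kept in medium with bFGF at 20 ng/mL and PDGFA at 20 ng/mL. For the oligodendrocytes, OPCs were first passaged in their growth medium without bFGF. They were then differentiated in a medium with noggin at 100 ng/mL, IGF-1 at 100 ng/mL and cyclic AMP at 10 uM. It also held NT3 at 10 ng/mL and thyroid hormone (T3) at 40 ng/mL, and its listed composition had no bFGF or PDGFA. No gene was altered in either group. Cultures were collected after 3 days, and lysates of several dishes were pooled into each sample. According to the study's text, some cells of the oligodendrocyte cultures remain OPCs. Each of the 4 cultures, 2 of OPCs and 2 of oligodendrocytes, gave 1 RNA-seq library and 1 library of footprints, the RNA fragments that ribosomes shield from micrococcal nuclease.

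Glutamate transporters of the Slc1 family carry glutamate into the cell together with sodium ions and a proton, against a potassium ion, and so draw on the sodium gradient that the sodium pump maintains. Slc1a3 (GLAST, or EAAT1) is known from astrocytes and radial glia. Slc1a1 (EAAC1, or EAAT3) is known from neurons and also carries cysteine, the precursor of glutathione. Slc1a2 (GLT-1, or EAAT2) is the main glutamate transporter of mature astrocytes, and Slc1a4 (ASCT1) and Slc1a5 (ASCT2) exchange neutral amino acids. In the oligodendrocyte lineage, uptake of glutamate is known for its part in limiting the activation of glutamate receptors, to which these cells are sensitive.

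Levels were given as FPKM, a fragment count scaled to feature length and library size. RNA-seq fragments were counted over the whole transcript, and footprints over the coding sequence (CDS). FPKM are scaled by length, so genes can be compared within a library. Depth was not listed and was estimated from the spacing of low values. The estimates were 77.9 to 241 Mb aligned per RNA-seq library and 93.0 to 249 Mb per footprint library. Larger multiples of these totals scored best, such as 481 and 468 Mb for the RNA-seq of OL cultures 1 and 2. The estimates could thus be off by more than a factor of 2. If each read held 30 aligned bases, Slc1a1 rested on about 52.7 to 116 RNA-seq reads in an OPC culture and 2086 to 3678 in an oligodendrocyte culture. For Slc1a3 the estimate was 4182 to 4571 RNA-seq reads in OPCs and 804 to 1241 in oligodendrocytes. The lower level of Slc1a1 in OPCs was therefore the least deeply covered value of the pair.

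Both measured transcripts are the canonical coding ones. Slc1a1 (ENSMUST00000025875) lies on the plus strand of chr19:28835074-28913960 (GRCm38) in 12 exons, and 41.4% of its 3800 bases are coding. Slc1a3 (ENSMUST00000005493) lies on the minus strand of chr15:8634124-8710764 in 10 exons, and 39.2% of its 4163 bases are coding. In a global alignment of their CDS, 69.0% of the 1490 aligned bases were identical, and the longest identical run was 20 bases. This run is printed within a spliced stretch of 60 bases, to show how far short reads can tell the transporters apart. The stretch spans exons 4 and 5 in both genes, at chr19:28894540-28896114 for Slc1a1 and chr15:8649555-8650877 for Slc1a3, with the intron left out. Capitals mark the 45 bases that Slc1a1 and Slc1a3 share and, in Slc1a2, the 45 bases it shares with Slc1a1 in exon 4 at chr2:102739868-102739927.
Slc1a1: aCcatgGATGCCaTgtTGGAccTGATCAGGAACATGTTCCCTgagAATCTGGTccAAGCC
Slc1a3: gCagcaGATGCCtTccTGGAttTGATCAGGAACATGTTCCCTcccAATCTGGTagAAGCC
Slc1a2: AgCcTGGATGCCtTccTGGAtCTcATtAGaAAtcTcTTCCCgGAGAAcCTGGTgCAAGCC

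No word of 30 bases from the CDS of Slc1a1 (1543 words) or Slc1a3 (1603 words) occurred in the same sense in a transcript of another gene of Gencode vM21. Over the whole Slc1a1 transcript, 7 of 3771 words did, all of them outside the CDS, and over Slc1a3 none of 4134 did. On the opposite strand, exons of 4430402I18Rik overlap 1216 bases of Slc1a1 exons, all within the 1572 bases of its CDS. Counting was not stated to use strand, so reads of this gene could not be told from reads of Slc1a1. The transcript of 4430402I18Rik that has values lies beside Slc1a1 (chr19:28923064-28964154) and was listed at 0 FPKM in 6 of 8 libraries, with 0.151 in the RNA of OPC culture 2 and 1.76 in the RNA of OL culture 1. Slc1a3 exons overlap no other gene.

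Slc1a1 was low in OPCs and among the most abundant transcripts in oligodendrocytes. Its RNA level was 3.78 and 2.50 FPKM in OPC cultures 1 and 2, and 241 and 211 FPKM in OL cultures 1 and 2. Its footprint level was 10.6 and 6.26 FPKM in the OPC cultures, against 795 and 856 in the OL cultures. The OPC and OL values did not overlap in either assay, but the gene was chosen for this difference. The share of all transcripts that also separate with 2 cultures per group was not counted. The mean RNA level went from 3.14 ± 0.903 to 226 ± 21.2 FPKM (SD, n = 2 cultures), a 72.1-fold difference. The mean footprint level went from 8.42 ± 3.05 to 826 ± 43.3 FPKM (SD, n = 2), a 98.0-fold difference. Ranked by RNA within each library, Slc1a1 stood at place 6784 and 7156 of 10987 in the OPC cultures and at place 158 and 196 in the OL cultures. In bulk samples such as these, a larger share of cells with the transcript and more transcript per cell cannot be told apart.

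Slc1a3 showed the opposite order but stayed abundant in oligodendrocytes. Its RNA level was 136 and 181 FPKM in OPC cultures 1 and 2, and 74.3 FPKM in each OL culture. Its footprint level was 346 and 495 FPKM in the OPC cultures, against 198 and 179 in the OL cultures. The groups did not overlap here either, in a gene likewise chosen for its difference. The OPC cultures differed from each other more than the OL cultures did. The mean RNA level was 159 ± 31.7 FPKM in OPCs and 74.3 ± 0.0299 FPKM in oligodendrocytes (SD, n = 2), 2.14-fold higher in OPCs. The mean footprint level was 421 ± 105 and 188 ± 13.0 FPKM (SD, n = 2), 2.23-fold higher in OPCs. In OL cultures the Slc1a3 RNA still exceeded that of 93.6% and 93.7% of all transcripts, compared with 96.8% and 97.7% in the OPC cultures. The plot of family levels by culture shows both genes next to Slc1a2 and Slc1a4.

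**Figure D1:**
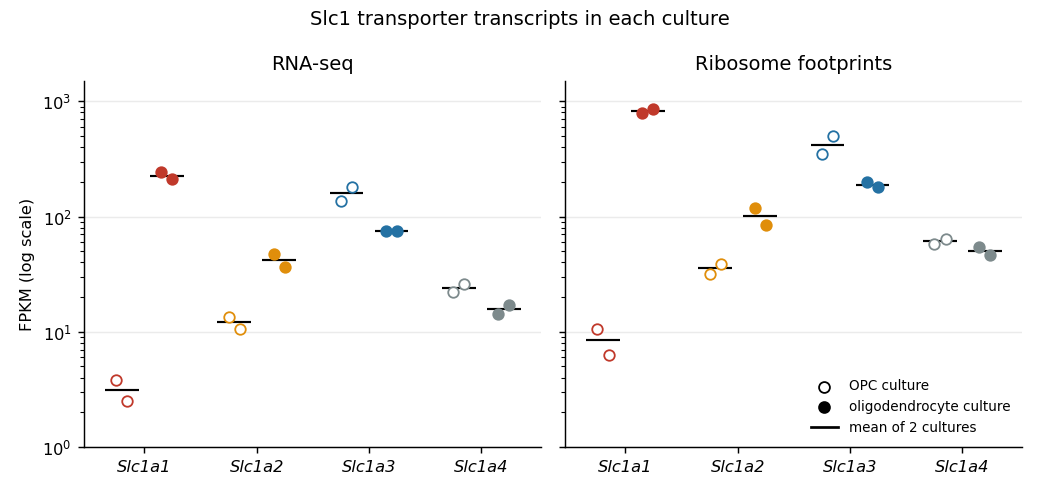
FPKM on a log axis for the Slc1 genes with values above 0 in every library, in RNA-seq (left) and footprints (right). Each circle is a culture, open for OPCs and filled for oligodendrocytes, and the bar is the mean of 2 cultures. Slc1a1 goes from 3.14 to 226 FPKM in RNA-seq, while Slc1a3 goes from 159 to 74.3 FPKM.

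The order of the transporters within a library turned over between the cell types. In RNA-seq, Slc1a3 exceeded Slc1a1 by 36.1-fold and 72.5-fold in OPC cultures 1 and 2, whereas Slc1a1 exceeded Slc1a3 by 3.25-fold and 2.84-fold in OL cultures 1 and 2. In footprints, the excess of Slc1a3 was 32.7-fold and 79.0-fold in OPCs, and that of Slc1a1 was 4.03-fold and 4.78-fold in oligodendrocytes. These ratios are taken within a library and do not depend on how libraries were scaled. The full order by RNA in OPCs was Slc1a3, Slc1a4, Slc1a2, Slc1a1 and Slc1a5, with overlapping values for the last pair. In oligodendrocytes the order was Slc1a1, Slc1a3, Slc1a2, Slc1a4 and Slc1a5, and no neighbours overlapped. Footprints gave the same orders, again with Slc1a1 and Slc1a5 overlapping in OPCs.

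Of the 7 genes of the family, Slc1a1 to Slc1a5 have values. Their summed RNA level was 179 and 222 FPKM in the OPC cultures, against 379 and 339 in the OL cultures. Slc1a3 made up 78.9% ± 3.97 of this sum in OPCs and 20.8% ± 1.60 in oligodendrocytes (SD, n = 2). The Slc1a1 share was 1.62% ± 0.693 in OPCs and 63.0% ± 1.02 in oligodendrocytes. The footprint sum was 456 and 609 FPKM in OPCs, against 1169 and 1166 in oligodendrocytes. Of it, Slc1a3 took 78.6% ± 3.89 in OPCs and 16.1% ± 1.09 in oligodendrocytes, and Slc1a1 1.67% ± 0.911 and 70.7% ± 3.82. The Slc1a1 footprint share in OPCs differed between the cultures, at 2.32% and 1.03%. The larger sum in oligodendrocytes was thus mostly Slc1a1 in both assays. The plot of family composition gives these shares for each culture.

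**Figure D2:**
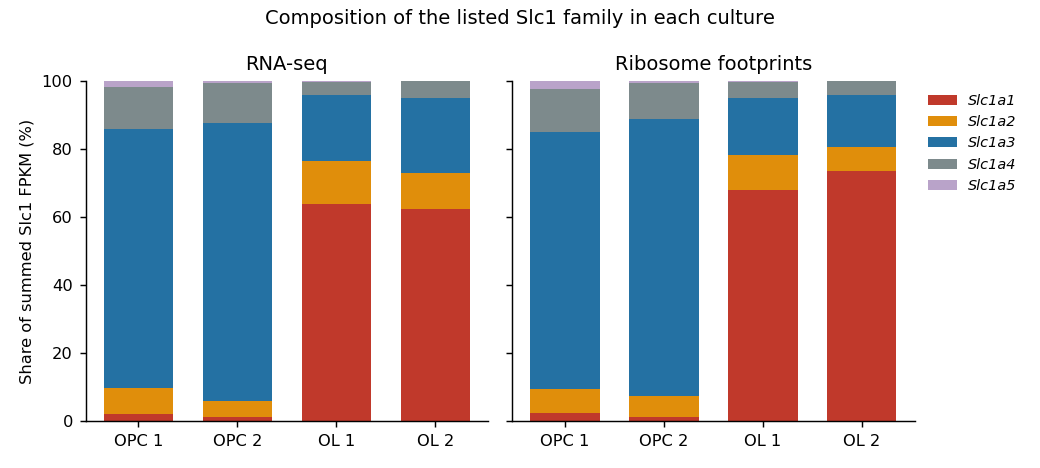
Stacked bars of the share (%) of each gene in the summed FPKM of Slc1a1 to Slc1a5, for each culture, in RNA-seq (left) and footprints (right). Slc1a3 fills most of every OPC bar, and Slc1a1 fills between 62.3% and 73.4% of every OL bar.

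The remaining family members did not enter the choice of genes and were tested with limma on log2(FPKM + 0.1), together with every transcript whose mean reached 1 FPKM. Among all transcripts tested this way, 33.2% of 8346 passed an adjusted p of 0.05 in RNA-seq, 13.0% higher and 20.2% lower in oligodendrocytes. In footprints 23.6% of 8342 passed, 12.8% higher and 10.8% lower. These shares are the background for each list count given below, and no list was tested against them. Over all transcripts, log2 fold changes had a median of -0.23 (RNA-seq) and -0.16 (footprints). Dividing each library by its median ratio to a reference moved the RNA-seq median to -0.05, and with it the share of higher transcripts among those past the threshold from 39.1% to 51.5%. This share was 66.7% without OPC culture 1 (355 higher and 177 lower) and 67.3% without OPC culture 2 (245 and 119). In footprints the share of higher transcripts was 54.1%, and 30.0% without OL culture 1 (1034 higher and 2408 lower), while the median of all transcripts became 0.07 without OL culture 2. Relative to the median of all transcripts, the Slc1a1 RNA difference was 6.38 and that of Slc1a3 was -0.85 on the log2 scale.

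Slc1a2 was higher in oligodendrocytes, as was Slc1a1, though by far less. Its RNA level was 13.5 and 10.6 FPKM in the OPC cultures, against 47.6 and 36.5 in the OL cultures, and its footprint level was 32.0 and 39.0 against 119 and 84.8 FPKM. In RNA-seq its log2 fold change reached 1.79 ± 0.23 (SE, limma, adjusted p = 0.00416), and in footprints 1.51 ± 0.23 (SE, limma, adjusted p = 0.0212). The RNA-seq call was lost without OPC culture 2 (limma, adjusted p = 0.0686), and the footprint call without OPC culture 1, OPC culture 2 or OL culture 2 (limma, adjusted p = 0.170, 0.149 and 0.0561). On the opposite strand of Slc1a2, exons of Gm13872 overlap 189 of its 2127 bases. Slc1a4 did not pass in RNA-seq (log2 fold change -0.62, limma adjusted p = 0.0662) or in footprints (-0.28, limma adjusted p = 0.280). Its RNA level was 22.2 and 25.9 FPKM in OPCs, against 14.3 and 17.0 in oligodendrocytes. Slc1a5 RNA was 3.28 and 1.48 FPKM in OPCs and 0.914 FPKM in OL culture 1, and was listed at 0 in OL culture 2 (limma, adjusted p = 0.133). Slc1a1 was therefore not the sole member of the family with more RNA in oligodendrocytes. Slc1a4 and Slc1a5 (log2 fold change -2.86 in RNA-seq) had the direction of Slc1a3, which was not tested, and neither passed.

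Placed among all transcripts, the pair differed in how far it stood out. In RNA-seq the log2 fold change of Slc1a1 was 6.15, 5.96 between cultures 1 and 6.34 between cultures 2, at place 40 from the highest of 8346. In footprints it was 6.65, with 6.22 and 7.07 for the culture pairs, at place 62 of 8342. In RNA-seq the log2 fold change of Slc1a3 was -1.08 (-0.88 and -1.29), at place 1606 from the lowest, and -1.14 in footprints (-0.81 and -1.47), at place 1944. The difference of Slc1a1 was thus among the most extreme in the libraries, and that of Slc1a3 was moderate. RNA and footprint differences of each gene were alike in size, as the plot of all transcripts shows.

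**Figure D3:**
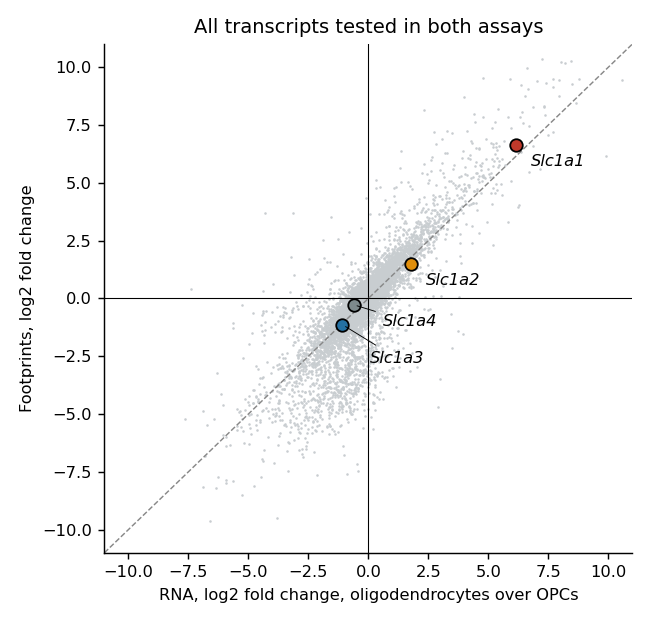
Log2 fold change of oligodendrocytes over OPCs in RNA-seq (x axis) and footprints (y axis), with 4 Slc1 genes marked. Grey points are the 8056 transcripts tested in both assays. Points beyond the axes, such as Tmem163 at 12.0 in footprints, are not drawn. The dashed line marks equal change, and Slc1a1 at 6.15 and 6.65 and Slc1a3 at -1.08 and -1.14 both lie close to it.

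The transcripts whose pattern over the 8 libraries came closest to each gene were found by the root mean square difference of log2(FPKM + 0.1), after centring within each assay, among 8056 transcripts. For Slc1a1 they were Neu4 (0.24), Tmem151a (0.37), Cnp (0.40), Enpp2 (0.41) and Ugt8a (0.41). Neu4 is a sialidase, Cnp a phosphodiesterase of myelin, Enpp2 the secreted enzyme autotaxin, and Ugt8a makes the myelin lipid galactosylceramide. Ugt8a RNA, for one, was 5.97 and 5.63 FPKM in OPCs, against 224 and 257 in oligodendrocytes. For Slc1a3 they were Nol11 (0.10), Ext1 (0.11), Kpna2 (0.11), Idh2 (0.11) and Paics (0.12). Nol11 acts in ribosome biogenesis, Ext1 in heparan sulfate synthesis, Kpna2 in nuclear import, Idh2 in the mitochondrial citrate cycle and Paics in purine synthesis. Idh2 RNA was 91.8 and 123 FPKM in OPCs, against 43.5 and 49.5 in oligodendrocytes. The lists depended on the measure. With a pseudocount of 1, 1 of the 5 names for Slc1a1 and 4 of the 5 for Slc1a3 remained, and with Pearson's correlation 0 of 5 in each list did.

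Ribosome density (RD), the footprint FPKM over the RNA-seq FPKM of the same culture, was above the median of all transcripts for both genes in all 4 cultures. The same held for Slc1a2, Slc1a4 and Slc1a5 wherever they had an RD, so this was not particular to the pair. In OL culture 1, Slc1a4 (3.78) and Slc1a5 (3.76) exceeded Slc1a1. The RD of Slc1a1 was 2.80 and 2.50 in the OPC cultures and 3.29 and 4.05 in the OL cultures. The RD of Slc1a3 was 2.54 and 2.73 in OPCs and 2.66 and 2.41 in oligodendrocytes. The groups thus overlapped for Slc1a3 and not for Slc1a1, and how many transcripts separate in this way was not counted. The median RD of all transcripts was 1.72 and 1.77 in OPCs and 2.02 and 1.95 in oligodendrocytes, itself somewhat higher in oligodendrocytes. Within its culture, Slc1a1 exceeded 77.1% and 69.8% of transcripts in OPCs and 79.3% and 84.2% in oligodendrocytes, and Slc1a3 exceeded 72.0% and 74.5%, then 66.7% and 61.3%. Between cultures of the same number, the log2 RD of Slc1a1 differed by 0.23 and 0.69, where the median transcript differed by 0.20 and 0.08. For Slc1a3 these values were 0.07 and -0.18. Among all transcripts, the RD difference of Slc1a1 exceeded 53.2% and 81.2% in these pairs, and that of Slc1a3 exceeded 36.2% and 35.6%. For each gene the RD difference was smaller than the log2 RNA difference, 6.15 for Slc1a1 and -1.08 for Slc1a3.

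**Figure D4:**
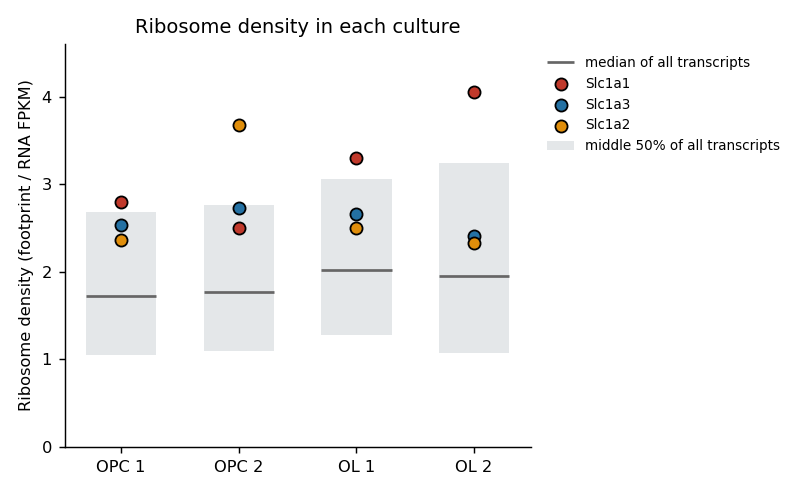
Ribosome density (footprint FPKM over RNA-seq FPKM) of Slc1a1, Slc1a3 and Slc1a2 in each culture, over a grey box for the middle 50% of all transcripts and a line at their median. Slc1a1 lies highest of the 3 genes in both OL cultures, at 3.29 and 4.05, and Slc1a3 lies between 2.41 and 2.73 in all cultures. Slc1a4 and Slc1a5, which are not drawn, stood at 3.78 and 3.76 in OL culture 1.

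Because the study concerned decoding of phenylalanine and lysine codons, the codon use of the transporters was counted. TTT made up 36.0% of the phenylalanine codons of Slc1a1 (9 of TTT and 16 of TTC), and 45.8% of those of Slc1a3 (11 and 13). These shares exceeded 35.5% and 55.1% of 10940 transcripts, whose median was 42.9%. AAA made up 25.9% of the lysine codons of Slc1a1 (7 of AAA and 20 of AAG), and 35.7% of those of Slc1a3 (10 and 18). These exceeded 27.0% and 47.0% of 10954 transcripts, whose median was 36.8%. Both shares were lower in Slc1a1 than in Slc1a3, and lower still in Slc1a2, at 30.4% and 17.2%. The TTT shares of Slc1a4 and Slc1a5, whose levels were not higher in oligodendrocytes, were below that of Slc1a2. For AAA, Slc1a4 lay between Slc1a1 and Slc1a3, and Slc1a5 had the highest share of Slc1a1 to Slc1a5, at 45.5%. Whether codon use goes with the difference in level was not tested. Each share rests on few codons.

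The promoters differed in base composition. In the 250 bases before the RefSeq start (GRCm38.p6), Slc1a1 had 70.4% G and C with 27 CpG dinucleotides, more than 91.2% and 91.4% of 32851 promoters. Slc1a3 had 44.8% G and C with 2 CpG, more than 23.2% and 18.8% of promoters. The median promoter had 52.4% and 6. The sequences are printed 5′ to 3′ on the strand of the gene to show this contrast, with CpG in capitals. That of Slc1a1 stops where the gene begins in Gencode vM21, so the last 86 of its 250 bases are left out, and the 164 bases printed hold 14 of the 27 CpG at 66.5% G and C. The Slc1a3 window is printed whole. The stretches are chr19:28834885-28835048 on the plus strand for Slc1a1 and chr15:8710808-8711057 on the minus strand for Slc1a3.
Slc1a1 promoter: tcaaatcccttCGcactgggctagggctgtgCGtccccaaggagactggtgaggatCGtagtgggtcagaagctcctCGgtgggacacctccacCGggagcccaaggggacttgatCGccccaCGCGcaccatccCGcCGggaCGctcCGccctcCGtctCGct
Slc1a3 promoter: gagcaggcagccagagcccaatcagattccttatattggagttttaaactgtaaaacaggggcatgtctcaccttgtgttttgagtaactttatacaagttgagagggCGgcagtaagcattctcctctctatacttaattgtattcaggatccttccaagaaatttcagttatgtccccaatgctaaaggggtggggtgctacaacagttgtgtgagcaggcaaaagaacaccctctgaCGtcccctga

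Letter matches were counted on both strands of the 250 bases, each motif apart from the others. TATAAA occurred once in Slc1a3 and not in Slc1a1, and in 12.4% of all promoters. CCAAT occurred 3 times in Slc1a3 and 0 times in Slc1a1, and in 33.8% of promoters. GGGCGG occurred once in each, and in 32.7% of promoters. AGGTCA, the core recognised by nuclear receptors such as that of T3, occurred in neither, and in 14.0% of promoters. CANNTG occurred once in Slc1a3 and not in Slc1a1, and in 66.2% of promoters.

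Of 6 partner proteins that handle the transporters, tested in RNA-seq, 1 rose, 2 fell and 3 did not pass. Of 6 in footprints 1 rose and 5 did not pass. Among all transcripts 33.2% passed in RNA-seq and 23.6% in footprints. The RNA-seq fold changes of the list had a log2 median of -0.42, beside -0.23 for all transcripts. Arl6ip5, which retains Slc1a1 protein in the endoplasmic reticulum, had an RNA level of 30.0 and 28.0 FPKM in OPCs, against 48.9 and 42.0 in oligodendrocytes (log2 fold change 0.64, limma adjusted p = 0.0365). Its footprints also rose (0.78, limma adjusted p = 0.0428), and both calls were lost when any 1 culture was left out (limma, adjusted p between 0.0682 and 0.166). Arl6ip1, which binds Arl6ip5, had RNA levels of 159 and 198 FPKM in OPCs, against 88.7 and 70.3 in oligodendrocytes (-1.17, limma adjusted p = 0.00834). Ezr, which links membrane proteins to actin, fell in RNA-seq (-2.37, limma adjusted p = 0.00971). The RNA-seq calls of Arl6ip1 and Ezr were lost without OPC culture 1, OPC culture 2 or OL culture 2. Neither passed in footprints (limma, adjusted p = 0.0956 and 0.132). Rtn2, a reticulon that promotes the trafficking of Slc1a1 protein, did not pass (-0.30, limma adjusted p = 0.286).

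Of the sodium pump, which maintains the gradient that the transporters use, 3 beta subunits were tested. None passed in RNA-seq, and 1, Atp1b2, rose in footprints. Over all transcripts 33.2% passed in RNA-seq and 23.6% in footprints. Atp1b1 did not pass in RNA-seq (log2 fold change 1.06, limma adjusted p = 0.0668) or in footprints (0.37, limma adjusted p = 0.519), nor did Atp1b3 (0.06 and 0.55, limma adjusted p = 0.826 and 0.263). For Atp1b2, a subunit of glia, the RNA level was 26.1 and 26.5 FPKM in OPCs, against 67.2 and 37.9 in oligodendrocytes, and its footprint level 199 and 231 against 499 and 352 FPKM. Atp1b2 passed in footprints (0.97, limma adjusted p = 0.0451) and not in RNA-seq (0.94, limma adjusted p = 0.0528). With the replicate number as a block, the calls changed places (limma, adjusted p = 0.0575 in footprints and 0.0170 in RNA-seq). The footprint call was lost without each culture in turn (limma, adjusted p up to 0.268).

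Of the enzymes reported here that make or use glutamate and glutamine, 9 were tested in RNA-seq, of which 2 rose, 1 fell and 6 did not pass, and 9 in footprints, of which 2 rose and 7 did not pass. The part that passed was near that of all transcripts, 33.2% in RNA-seq and 23.6% in footprints. Glul, glutamine synthetase, had an RNA level of 108 and 97.1 FPKM in OPCs, against 201 and 157 in oligodendrocytes (0.80, limma adjusted p = 0.0208), and its footprints rose too (0.95, limma adjusted p = 0.0184). Abat, the enzyme that breaks down GABA and yields glutamate, went from 9.32 and 15.6 FPKM to 112 and 88.1 FPKM (3.03, limma adjusted p = 0.00173), and its footprints rose by 3.50 (limma, adjusted p = 0.00505). Aldh18a1, an enzyme of proline synthesis from glutamate, fell in RNA-seq (-0.67, limma adjusted p = 0.0405) and not in footprints (-0.11, limma adjusted p = 0.704), and the former call was lost under median-ratio scaling and without any 1 culture. The Glul RNA-seq call was lost without OPC culture 1, OPC culture 2 or OL culture 1 (limma, adjusted p = 0.1004, 0.146 and 0.0855), and that of Abat was kept without each culture in turn.

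Of 7 genes of cystine uptake and glutathione synthesis tested in RNA-seq, 2 were higher, 2 lower and 3 not past the threshold. In footprints 1 of 8 was higher, 2 lower and 5 not past. Among all transcripts 13.0% were higher and 20.2% lower in RNA-seq, and 12.8% and 10.8% in footprints. Slc7a11, the antiporter that exports glutamate in exchange for cystine, had an RNA level of 13.5 and 14.1 FPKM in OPCs, against 30.1 and 36.9 in oligodendrocytes (1.27, limma adjusted p = 0.00698). The footprint level stood at 5.36 and 4.46 FPKM in OPCs and at 4.01 in OL culture 1, and was listed at 0 in OL culture 2 (limma, adjusted p = 0.341). The RNA of Slc7a11 was thus higher in oligodendrocytes without a matching rise in footprints. The RNA-seq call was lost without either OPC culture (limma, adjusted p = 0.0709 and 0.0790). Gsr, glutathione reductase, fell in RNA-seq (-1.65, limma adjusted p = 0.00683) and in footprints (-1.67, limma adjusted p = 0.0122). Gclm, the modifier of the enzyme that joins glutamate and cysteine, fell in both (-1.14 and -1.47, limma adjusted p = 0.0250 and 0.0390). Ggt7, of the gamma-glutamyltransferase family, rose in both (1.41 and 2.20, limma adjusted p = 0.0257 and 0.0222).

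Of 5 carriers of glutamine and neutral amino acids, 2 were lower and 3 not past the threshold in each assay. Among all transcripts 13.0% were higher and 20.2% lower in RNA-seq, and 12.8% and 10.8% in footprints. Slc38a3, a glutamine carrier, fell (-1.10 in RNA-seq and -0.71 in footprints, limma adjusted p = 0.00662 and 0.0234), as did Slc7a5, the large neutral amino acid carrier (-1.50 and -1.27, limma adjusted p = 0.00944 and 0.00899). Among vesicular and mitochondrial glutamate carriers, 2 of 5 fell and 3 did not pass in RNA-seq, and 1 of 4 fell and 3 did not pass in footprints. Slc25a18, a mitochondrial glutamate carrier, went from 79.1 and 82.0 FPKM to 39.0 and 36.4 FPKM in RNA-seq (-1.09, limma adjusted p = 0.00500), a difference like that of Slc1a3 at -1.08, and its footprints fell by 1.22 (limma, adjusted p = 0.0330). Slc25a13, a mitochondrial aspartate and glutamate carrier, was at 2.44 and 1.89 FPKM in OPCs and 0.244 FPKM in OL culture 1, and was listed at 0 in OL culture 2 (limma, adjusted p = 0.0396).

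Of 9 glutamate receptors tested in each assay, 3 rose, 2 fell and 4 did not pass in RNA-seq. In footprints 3 rose, 1 fell and 5 did not pass. Among all transcripts 13.0% were higher and 20.2% lower in RNA-seq, and 12.8% and 10.8% in footprints. The kainate receptor subunit Grik3 had an RNA level of 8.29 and 4.42 FPKM in OPCs, against 37.9 and 33.5 in oligodendrocytes (2.54, limma adjusted p = 0.00427), and its footprints rose by 2.84 (limma, adjusted p = 0.00713). Grik2 rose by 2.56 in RNA-seq (limma, adjusted p = 0.00453) and by 2.86 in footprints (limma, adjusted p = 0.0273, or 0.0587 with the replicate number as a block). Gria2, the AMPA receptor subunit that limits calcium entry, rose by 1.80 in RNA-seq and 2.63 in footprints (limma, adjusted p = 0.00453 and 0.00690). The metabotropic receptor Grm5 went from 49.3 and 23.3 FPKM to 5.84 and 2.85 FPKM in RNA-seq (-3.02, limma adjusted p = 0.00749) and fell by 2.85 in footprints (limma, adjusted p = 0.0298). Grm3 fell by 2.23 in RNA-seq (limma, adjusted p = 0.00300). The plot of glutamate-handling genes sets these beside Slc1a1 and Slc1a3.

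**Figure D5:**
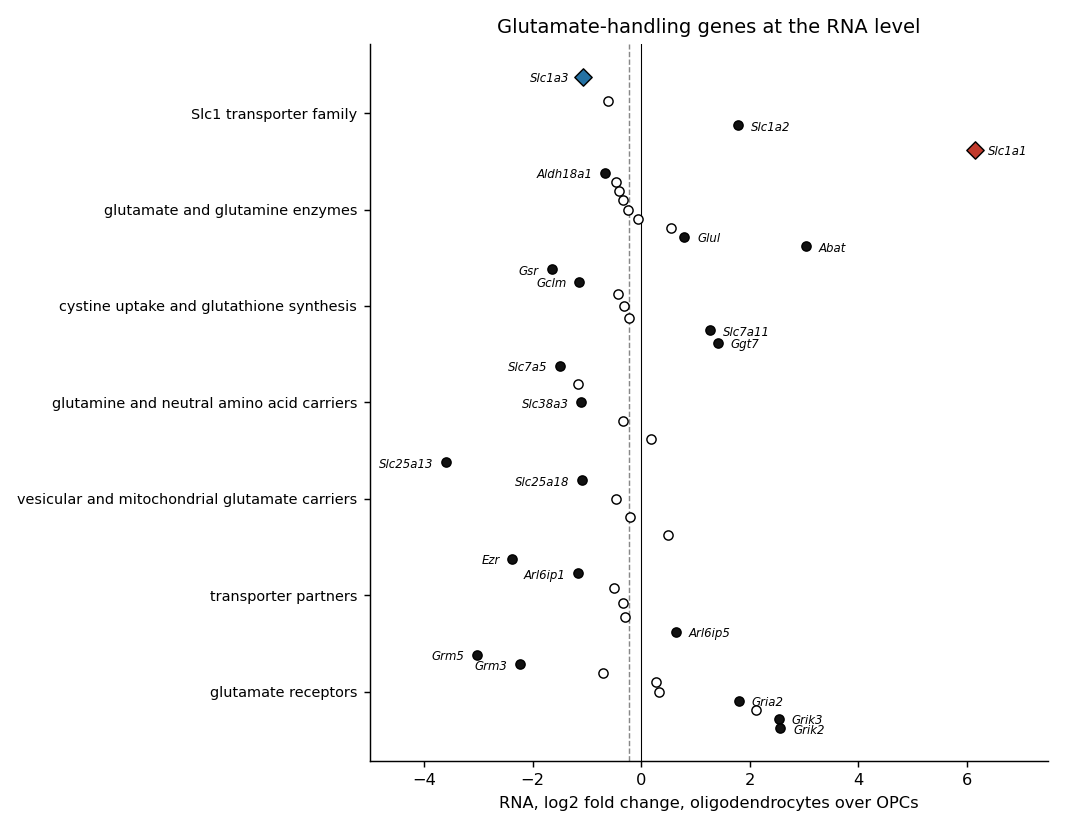
RNA-seq log2 fold change of oligodendrocytes over OPCs for the glutamate-handling genes, by list. Filled circles passed an adjusted p of 0.05 (limma), open circles did not, and diamonds mark Slc1a1 and Slc1a3, which were not tested. The dashed line is the median of all transcripts (-0.23), Slc1a5 is not drawn because it was listed at 0 in OL culture 2, and Slc1a1 at 6.15 lies beyond every other gene shown.

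Which calls held depended on the OPC cultures. Across all lists, marker lists included, 40 genes besides Slc1a1 and Slc1a3 passed in RNA-seq. Of these 19 passed without OPC culture 1 and 15 without OPC culture 2, and 33 and 31 without OL cultures 1 and 2. In footprints 32 passed, 0 without either OPC culture, 29 without OL culture 1 and 15 without OL culture 2. Among the glutamate-handling genes, Abat, Gria2 and Grik3 passed in RNA-seq under every alternative tried. For Slc1a1 and Slc1a3, leaving out a culture could not turn the direction of the difference, because their OPC and OL values did not overlap. The log2 differences in RNA-seq were then 5.86 to 6.44 and -1.29 to -0.88.

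Markers of cell types were checked against the labels. Over all transcripts 13.0% were higher and 20.2% lower in RNA-seq. Of 8 oligodendrocyte markers tested in RNA-seq, 7 rose and 1 did not pass, and their summed RNA level went from 34.3 and 36.7 FPKM to 3749 and 3271 FPKM. Mag, Mog and Myrf were listed at 0 in both OPC RNA-seq libraries, and Mbp was not analysed here. Of 7 OPC markers, 4 rose, none fell and 3 did not pass in RNA-seq. Gpr17, a receptor of newly committed cells of the lineage, had the largest change (5.23, limma adjusted p = 0.000442), followed by Lhfpl3 (1.58, limma adjusted p = 0.00212). Sox6, a transcription factor of progenitors, rose by 0.72 (limma, adjusted p = 0.0249), a call lost without any 1 culture (limma, adjusted p between 0.0687 and 0.124). Pdgfra, the PDGFA receptor, was at 53.5 and 31.3 FPKM in the OPC cultures and at 105 and 101 FPKM in the OL cultures (1.33, limma adjusted p = 0.0158), a call lost without OPC culture 2, OL culture 1 or OL culture 2 (limma, adjusted p = 0.0682, 0.0631 and 0.0867). Its level did not follow the OPC label, and Cspg4 was not analysed here.

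Slc1a3 is also a marker of astrocytes and of radial glia, so the other markers of both were counted. Over all transcripts 13.0% were higher and 20.2% lower in RNA-seq, and 12.8% and 10.8% in footprints. Of 9 astrocyte markers in RNA-seq, Slc1a2 among them, 4 rose and 5 did not pass, with a median log2 fold change of 1.79, and in footprints 3 rose and 6 did not pass, with a median of 0.77. Their summed RNA level was 415 and 321 FPKM in OPCs, against 1355 and 1090 in oligodendrocytes. Gfap, which defines astrocytes, was at 0.155 and 0 FPKM in OPC RNA, against 14.2 and 2.11 in OL cultures 1 and 2 (limma, adjusted p = 0.0195). Its footprints were listed at 0 in every culture but OL culture 1, at 28.0 FPKM. S100b and Apoe rose in RNA-seq (5.33 and 2.91, limma adjusted p = 0.000334 and 0.00453), and S100b is also known from the oligodendrocyte lineage. The RNA-seq calls of Gfap and Apoe were lost without OPC culture 1 or OPC culture 2. Without OL culture 1, Gfap lay under the minimum mean of 1 FPKM and was not tested. Aldh1l1 was at 0.671 and 0.390 FPKM in OPCs, against 5.41 and 1.27 FPKM, and did not pass (limma, adjusted p = 0.102). Fgfr3 and Slc4a4 were at log2 fold changes of -0.29 and -0.17 and did not pass (limma, adjusted p = 0.439 and 0.573).

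Of 8 markers of neural progenitors and radial glia in RNA-seq, 1 rose, 3 fell and 4 did not pass, with a median log2 fold change of -0.35. In footprints 3 of 9 fell and 6 did not pass, with a median of 0.02. Over all transcripts 13.0% were higher and 20.2% lower in RNA-seq, and 12.8% and 10.8% in footprints. Their summed RNA level was 4558 and 4724 FPKM in OPCs, against 3337 and 2753 in oligodendrocytes, most of it Fabp7. Nes and Vim, which encode intermediate filament proteins, and the Notch target Hes1 fell by 2.80, 2.29 and 2.80 in RNA-seq (limma, adjusted p = 0.000532, 0.000616 and 0.00806). The Hes1 call was lost without either OPC culture (limma, adjusted p = 0.109 and 0.116). Sox2 rose by 0.79 (limma, adjusted p = 0.0125), a call lost without OPC culture 1, OPC culture 2 or OL culture 2 (limma, adjusted p = 0.0651, 0.0936 and 0.0821). Fabp7 (-0.53), Hes5 (1.10), Notch1 (-0.18) and Ptprz1 (0.01) did not pass. With the replicate number as a block, Fabp7 and Hes5 also passed in RNA-seq (limma, adjusted p = 0.0317 and 0.0102), and Fabp7 and Sox2 in footprints (limma, adjusted p = 0.0271 and 0.0121). The part of astrocytes, progenitors or remaining OPCs in the Slc1a1, Slc1a2 and Slc1a3 levels was not tested.

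Slc1a1 is known from neurons, and of 7 neuron markers 2 rose and 5 did not pass in RNA-seq. Over all transcripts 13.0% were higher and 20.2% lower. The summed level of the 7 was 133 and 118 FPKM in OPCs, against 188 and 204 in oligodendrocytes, most of it Map2. Map2 RNA was at 102 and 95.7 FPKM in OPCs, against 117 and 124 in oligodendrocytes, and did not pass (limma, adjusted p = 0.178). Dcx, a microtubule-associated protein of young neurons, was at 8.17 and 6.46 FPKM in OPCs, against 24.9 and 27.9 in oligodendrocytes (1.85, limma adjusted p = 0.00367). Tubb3, a tubulin, went from 18.5 and 12.3 FPKM to 40.5 and 42.3 FPKM (1.45, limma adjusted p = 0.00867). Both also rose in footprints (limma, adjusted p = 0.0254 for Dcx and 0.0119 for Tubb3). The RNA-seq calls of both were lost without OPC culture 2 (limma, adjusted p = 0.0586 for Dcx and 0.0668 for Tubb3), and that of Tubb3 also without OL culture 2 (limma, adjusted p = 0.0602). Rbfox3 and Snap25 did not exceed 1.58 FPKM in any RNA-seq library. In footprints Rbfox3 was listed at 0 throughout, and Snap25 reached 4.10 FPKM in OL culture 1. Syt1 RNA was 0.967 and 0.898 FPKM in OPCs, against 1.44 and 3.19 in oligodendrocytes. Its footprints were 2.19 and 4.79 FPKM, against 5.75 and 21.2, and it passed in neither assay (limma, adjusted p = 0.210 and 0.223). Nefl RNA reached 4.34 FPKM in OL culture 2 and did not pass (limma, adjusted p = 0.193). The part of neurons in the Slc1a1 level was not tested. The 3 listed microglia markers, Csf1r, P2ry12 and Cd68, summed to 1.42 FPKM in OPC culture 1 and 0 FPKM in the other 3 RNA-seq libraries.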

How the data were processed

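Footprints and total RNA were sequenced from 2 OPC and 2 oligodendrocyte cultures, 8 libraries in all. The authors deposited FPKM values, made with fastx_clipper, HISAT2 2.1.0 (GRCm38) and StringTie 1.3.5 with ballgown on canonical coding transcripts of Gencode vM9, counting the CDS for footprints and the whole transcript for RNA-seq. All 8 columns of values were used. Coordinates and sequences came from Gencode vM21, which holds all 10987 identifiers, and promoters from RefSeq.

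The R package limma 3.58.1 (R 4.3.3) was fitted to log2(FPKM + 0.1) with a variance trend, two-sided and Benjamini-Hochberg adjusted, for each assay apart and for transcripts whose mean reached 1 FPKM. Fold changes are on that scale. The fit was tested on simulated data. Summaries used Python 3.11.15. Some genes of the lists are not reported here. Genes were named by a rule: the family, up to 4 passing members per list by size, and genes acting directly on uptake. Gria2, Atp1b1, Atp1b3 and the named cell type markers stand outside it and were chosen after their values were seen. The members, lists and tests were chosen with earlier results of these data known. Replicate numbers are shared by the labels, and the methods call the oligodendrocytes the corresponding differentiated cultures. Deviations of same-numbered cultures correlated at 0.108 in RNA-seq and 0.086 in footprints. Nothing in the labels says that replicates were independent derivations, so p-values measure the spread between these samples. Alternatives were other pseudocounts, minimums, scaling, no trend, a replicate block and leaving out each culture.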

Additional observations from a re-analysis of the deposited data

How the results depend on the processing

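With 2 cultures per group, the OPC and OL values of Slc1a1 and of Slc1a3 did not overlap. Their direction could therefore not turn under other pseudocounts or without a culture, and it also held under median-ratio scaling. Leaving out a culture gave 5.86 to 6.44 (RNA-seq) and 6.27 to 7.02 (footprints) for Slc1a1, and -1.29 to -0.88 and -1.40 to -0.88 for Slc1a3, on the log2 scale. Median-ratio scaling moved the mean RD of Slc1a3 in OPCs from 2.63 to 2.78.

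The counts of transcripts past the threshold changed more. Without a culture they ranged from 364 to 2599 in RNA-seq, against 2772, the lowest without OPC culture 2 and the next, 532, without OPC culture 1, with 1633 without OL culture 2. In footprints they ranged from 0 to 3442, against 1969, with 0 by limma without OPC culture 1 or 2, where 1936 and 1927 had an unadjusted p under 0.05, 778 without OL culture 2 and 3442 without OL culture 1. Without the variance trend the footprint count was 1036. A lone culture was taken to vary like the others. The replicate block gave 3323 in RNA-seq and 1735 in footprints. Of the glutamate-handling genes and the marker genes, the block changed calls for Atp1b2, Grik2, Fabp7, Hes5 and Sox2. Leaving out a culture also leaves fewer samples, and the cause of the other changes was not tested. Without OPC culture 1 or 2 most RNA-seq calls were higher (66.7% and 67.3%, against 39.1%), without OL culture 1 most footprint calls were lower (30.0% higher, against 54.1%), and without OL culture 2 the median footprint change of all transcripts turned from -0.16 to 0.07. The Slc1a1 share of family footprints in OPCs went from 1.67% to 1.03% or 2.32% without OPC culture 1 or 2.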
